A study of Mus musculus with 30 samples.

Results

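The late intermediate of 4-factor reprogramming was described by setting the 2 libraries collected on day 7 against the 2 libraries of day 0 mouse embryonic fibroblasts (MEFs), 4 of the 30 RNA-seq libraries of the series. Both groups carried the genotype 129XOG2, and OG2 is a mouse line widely used for its fluorescent reporter of Oct4. The day 7 cells were MEFs of passages 1 to 3 that had received lentivirus for Oct4, Sox2, Klf4 and c-Myc, had been replated, and were kept in a medium of serum, knockout serum replacement, nonessential amino acids, 2-mercaptoethanol and 2 µg/ml doxycycline. The day 0 cells were MEFs in a medium of serum and antibiotics, for which the labels name no virus, no serum replacement, no added amino acids and no doxycycline. Factors, infection, replating, medium and time therefore changed together and cannot be told apart. No sort is described for either group, so each library averages over whole cultures, and fewer cells of a type and less RNA per cell cannot be told apart. Values are FPKM (fragments per kilobase of transcript, scaled to the size of the library), and changes are given as log2(FPKM + 1) of day 7 minus day 0. All 10 libraries of the 4-factor table shared the estimate of the spread: days 0, 2, 4 and 7 and the iPSCs (induced pluripotent stem cells).

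Reprogramming by these factors proceeds through a loss of the fibroblast programme, a mesenchymal-to-epithelial transition and, in few cells, a late activation of the pluripotency network. On the way the cells are known to turn their energy metabolism towards glycolysis, and most cells do not complete the process. Fibroblasts themselves are known for collagen matrix, actin stress fibres and the mesenchymal factors that repress E-cadherin.

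The lowest FPKM values fell on steps that gave a depth of 37400000 and 34900000 steps in the day 7 libraries, against 39100000 and 38700000 in the day 0 libraries. Replicates had correlations of log2(FPKM + 1) of 0.9923 on day 7 and 0.995 on day 0 over 14761 genes, and 60 genes on day 7 against 34 on day 0 lay more than 2-fold apart between replicates. FPKM summed to 414505 and 418507 on day 7, against 363338 and 367719 on day 0, and the 13 protein genes of the mitochondrial genome held 13.3% and 11.3% of that sum on day 7, against 5.08% and 5.35% on day 0. Their part in the results below was tested only through the rescalings given with the counts. The MEF label fitted its markers on day 0, where Col1a1 averaged 2352 FPKM, Vim 1793, Thy1 286 and Prrx1 117.

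Of 14761 genes that reached 1 FPKM in 2 or more of the 10 libraries, 1493 (10.1%) were called, that is, changed at least 2-fold with a Benjamini-Hochberg adjusted p under 0.05 in limma. The called genes divided into 916 higher on day 7 (6.21% of genes tested) and 577 lower (3.91%), and the median change over all genes was 0.02 log2 units. Rescaling every library to TPM moved that median to -0.13 and gave 1102 higher and 1189 lower, and rescaling to equal FPKM sums moved it to -0.12 and gave 731 higher and 903 lower. The balance of rises and falls thus depended on the scaling, and the counts of each gene group below stand against these 2 background shares and these shifts.

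**Figure D1:**
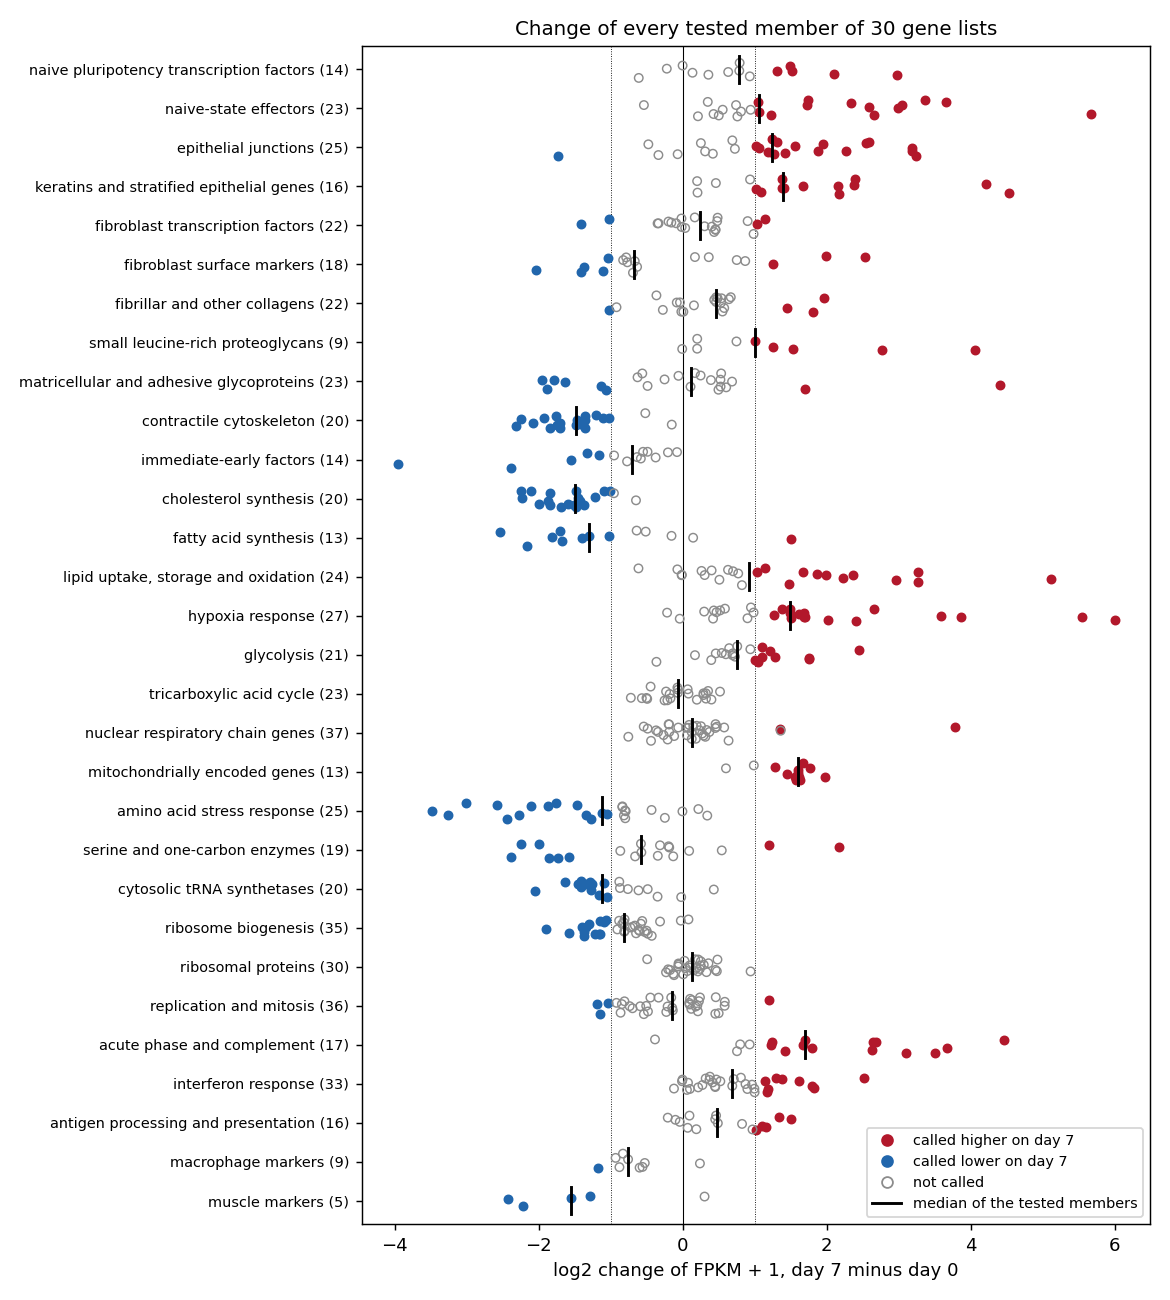
Log2 change of FPKM + 1 (day 7 minus day 0) of every tested member of 30 gene lists, with the number tested in brackets. Filled points were called and open points were not, black bars are medians, and dotted lines mark a 2-fold change; contractile, sterol, amino acid and tRNA synthetase lists lie to the left, and epithelial, hypoxia and acute-phase lists to the right.

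The pluripotency programme was detected at a low level on day 7. Transcripts assigned to Pou5f1, which encodes Oct4, stood at 27.7 and 29.6 FPKM on day 7, against 0 and 0 on day 0 (adjusted p = 1.46e-06, with no fold given against 0). Sox2 had 4.85 and 5.14 FPKM on day 7, against 0.274 and 0.401 on day 0 and also rose (log2 change 2.16 ± 0.20 (SE), adjusted p = 7.62e-05). The other 2 delivered factors were lower on day 7 than in the starting fibroblasts, which express both genes themselves. Klf4 had 6.20 and 7.78 FPKM on day 7, against 22.2 and 22.95 on day 0 (log2 change -1.57 ± 0.26 (SE), adjusted p = 0.00219). Myc had 11.03 and 10.4 FPKM on day 7, against 32.4 and 32.5 on day 0 (log2 change -1.51 ± 0.23 (SE), adjusted p = 0.00117). Gene-level FPKM does not separate delivered from endogenous transcripts of these 4 genes.

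Among 14 tested transcription factors of the naive state, 5 rose and none fell, with a median change of 0.79. With the filter over the 4 compared libraries alone 10 were tested, and 5 rose. Nanog, a core factor of the network, had 8.18 and 8.34 FPKM on day 7, against 0.304 and 0.0659 on day 0 (log2 change 2.97 ± 0.13 (SE), adjusted p = 2.04e-06). Zfp42, the naive-state marker also called Rex1, had 3.74 and 2.93 FPKM on day 7, against 0 and 0 on day 0, and Sall4, a partner of Oct4, had 1.78 and 1.94 FPKM on day 7, against 0 and 0 on day 0. Zfp296 (log2 change 1.49) and Esrrb (1.31) completed the 5. On TPM 9 members were called, without mitochondrial genes 9, and with a pseudocount of 0.1 instead of 1, which weighs low genes more, 10. With equal FPKM sums 5 were called. Late network members stayed near the floor: Tfcp2l1 averaged 0.779 FPKM on day 7 against 0.0300 on day 0, and Nr5a2 and Prdm14 averaged 0.283 and 0.555 FPKM on day 7 and were listed at 0 on day 0. Klf2, Klf5 and Tbx3, which fibroblasts also express, were not called.

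Naive-state effectors followed, with 13 of 23 higher, none lower and a median change of 1.06. With the filter over the 4 compared libraries alone, 11 of 15 were higher. Dppa5a, an RNA-binding protein of naive cells, had 50.0 and 49.8 FPKM on day 7, against 0 and 0 on day 0 (adjusted p = 7.5e-07). L1td1, an RNA-binding protein of embryonic stem cells, had 11.7 and 11.7 FPKM on day 7, against 0 and 0 on day 0, and Tdgf1, the Nodal co-receptor Cripto, had 8.85 and 9.72 FPKM on day 7, against 0 and 0 on day 0. Utf1 had 7.24 and 7.34 FPKM on day 7, against 0 and 0 on day 0, and Tdh, the threonine dehydrogenase of mouse embryonic stem cells, had 7.35 and 6.53 FPKM on day 7, against 0 and 0 on day 0. All 5 were listed at 0 in both day 0 libraries, so no fold is given for them. Lin28a, in contrast, averaged only 0.416 FPKM on day 7 and was not called. Spp1, the secreted phosphoprotein osteopontin that fibroblasts also make, had 940.4 and 936 FPKM on day 7, against 142 and 153 on day 0 (log2 change 2.66 ± 0.16 (SE), adjusted p = 9e-06).

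The day 7 levels were far from those of iPSCs, where 45.7% of all genes tested differed from day 7; iPSCs were grown on feeder cells in another medium, with LIF and inhibitors of GSK3 and MEK. Nanog averaged 8.26 ± 0.111 FPKM on day 7 and 334 ± 19.4 in iPSCs (SD, n = 2 each, log2 difference -5.17 ± 0.13 (SE), adjusted p = 7.45e-09). Pou5f1 averaged 28.7 ± 1.37 FPKM on day 7 and 749 ± 206 in iPSCs (log2 difference -4.63 ± 0.20 (SE), adjusted p = 9.74e-08). Dppa5a averaged 49.9 ± 0.102 FPKM on day 7 and 1670 ± 338 in iPSCs (log2 difference -5.02 ± 0.19 (SE), adjusted p = 4.12e-08). Genes of the primed state and germ layers gave 1 higher and 1 lower of 10 tested, or of 4 with the filter over the 4 compared libraries alone. Fgf5, Otx2, Mixl1 and Foxa2 stayed below the filter. The higher one, Lefty1, a Nodal inhibitor, lost its call without day 7 replicate 1 (log2 change 1.29) or day 0 replicate 2 (1.27), and the lower one was Sox11, a factor of neural and mesenchymal progenitors (-1.34). The 2-cell-like and methylation-sensitive germline lists had no member called of 7 and 8 tested in limma, with 1 gene in each at an unadjusted p under 0.05, and Zscan4c, Zscan4d and Zscan4f were listed at 0 in all 4 libraries.

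Epithelial genes formed a further group that rose. Of 25 tested junction genes, 16 were higher and 1 was lower, with a median change of 1.24. Epcam, an epithelial adhesion molecule, had 8.19 and 8.82 FPKM on day 7, against 0.0974 and 0 on day 0 (log2 change 3.18 ± 0.13 (SE), adjusted p = 1.46e-06). Cdh1, E-cadherin, had 4.90 and 5.32 FPKM on day 7, against 0.0224 and 0 on day 0 (log2 change 2.59 ± 0.17 (SE), adjusted p = 1.31e-05). Perp, a desmosome component, had 24.6 and 22.96 FPKM on day 7, against 1.61 and 1.83 on day 0, and Itgb4, the integrin of hemidesmosomes, had 9.73 and 11.3 FPKM on day 7, against 0.193 and 0.229 on day 0. Dsp and Cldn4 rose by 2.27 and 2.55 log2 units. The member that fell was Cdh3, P-cadherin, which had 6.93 and 7.45 FPKM on day 7, against 26.9 and 25.6 on day 0 (log2 change -1.73 ± 0.22 (SE), adjusted p = 0.000488).

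Of 10 tested regulators of the transition 5 rose, among them Elf3 (3.05 and 3.57 FPKM on day 7, against 0 and 0.0103 on day 0), the splicing regulator Esrp1 (2.41 and 1.63 FPKM on day 7, against 0 and 0 on day 0), Ap1m2, Rab25 and Grhl3. On TPM, without mitochondrial genes and with a pseudocount of 0.1, 8 rose. Ovol1, Ovol2 and Grhl2 stayed below the filter in these cells.

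Of 16 tested keratins and stratified epithelial genes 12 were higher and none lower, with a median change of 1.39. Krt8, a keratin of simple epithelia, had 37.1 and 37.3 FPKM on day 7, against 0.644 and 0.659 on day 0 (log2 change 4.53 ± 0.14 (SE), adjusted p = 5e-07). Its partner Krt18 had 10.7 and 11.7 FPKM on day 7, against 1.53 and 1.99 on day 0. Keratins of stratified and stressed epidermis rose too, and Krt17 had 19.12 and 20.1 FPKM on day 7, against 0.203 and 0.0263 on day 0 (log2 change 4.21 ± 0.24 (SE), adjusted p = 6.47e-06). Krt14 had 4.58 and 5.795 FPKM on day 7, against 0.298 and 0.444 on day 0, Krt16 rose by 1.68 log2 units, and Krt6a, which was listed at 0 on day 0, averaged 4.2 FPKM on day 7. The cornified envelope gene Sprr1a had 5.92 and 5.07 FPKM on day 7, against 0.306 and 0.172 on day 0. Trp63, the basal epidermal factor, reached only 1.11 and 1.03 FPKM on day 7, against 0.00908 and 0.0364 on day 0. The call of Trp63 was lost under quantile normalization, with equal FPKM sums, without day 7 replicate 1 (log2 change 0.99) and without day 0 replicate 1 (0.998). Trp63 and Ly6d, both among the 12, passed the filter only through day 7, so a difference was fixed for them in advance. Day 7 and iPSCs differed in this group: Krt8 averaged 37.2 ± 0.138 FPKM on day 7 and 2.51 ± 0.540 in iPSCs (log2 difference 3.45 ± 0.14 (SE), adjusted p = 5.79e-08), and Krt17 averaged 19.6 ± 0.686 FPKM on day 7 and 1.99 ± 0.961 in iPSCs (log2 difference 2.82 ± 0.24 (SE), adjusted p = 5.56e-06), whereas Cdh1 was lower on day 7, at 5.11 ± 0.294 FPKM against 86.7 ± 4.52 in iPSCs (log2 difference -3.84 ± 0.17 (SE), adjusted p = 8.72e-08).

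**Figure D2:**
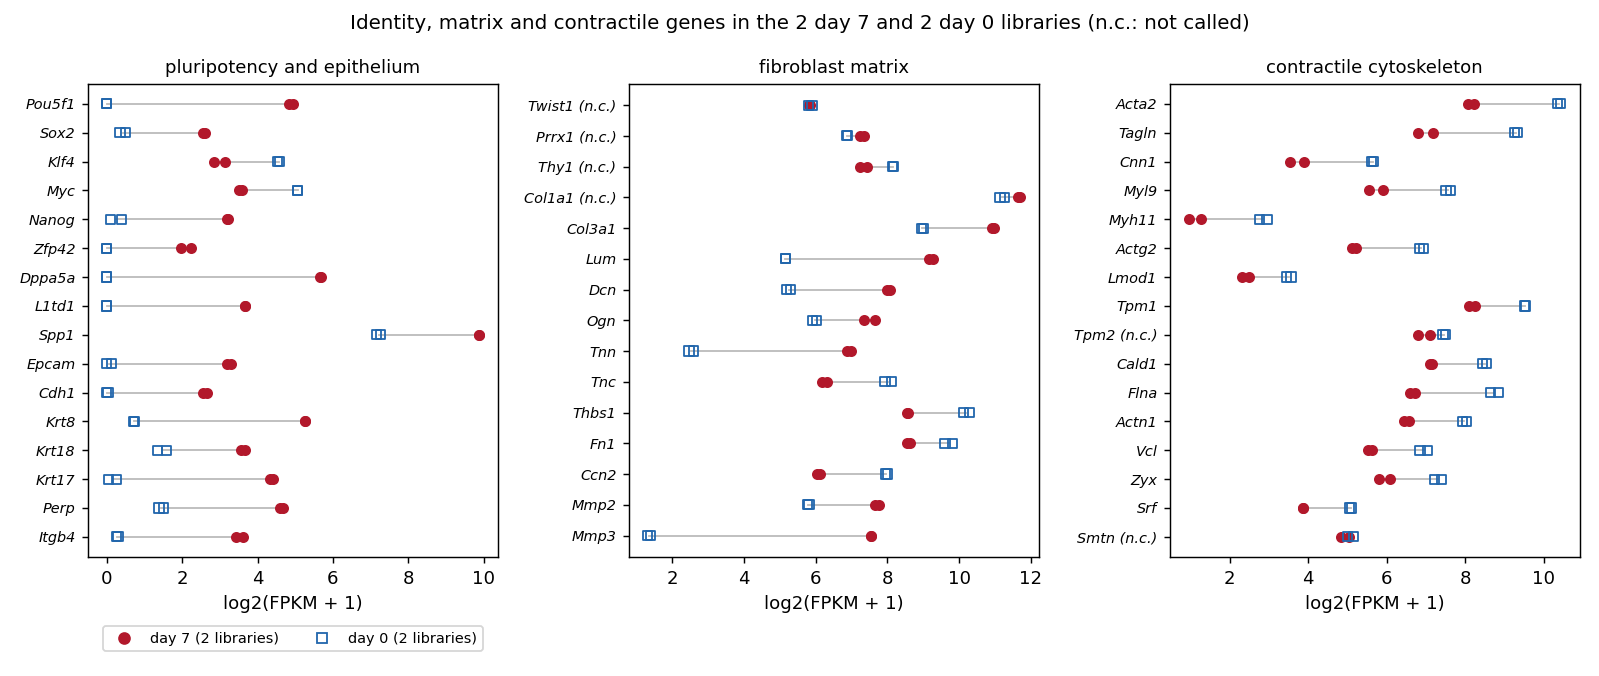
log2(FPKM + 1) of identity, matrix and contractile genes in the 2 day 7 libraries (red circles) and the 2 day 0 libraries (blue squares), with a grey line between the group means. Pluripotency and epithelial genes lie to the right on day 7, except Klf4 and Myc, which lie to the left. Twist1 and Prrx1 hardly differ, matrix genes go both ways, and all contractile genes but Smtn and Tpm2 were called lower.

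Of 22 tested fibroblast transcription factors, 2 rose, 2 fell and 18 were not called. Twist1, a mesenchymal factor, had 57.0 and 55.3 FPKM on day 7, against 55.0 and 58.8 on day 0, so its libraries overlapped between days. Prrx1, a limb mesenchyme factor, had 161 and 149 FPKM on day 7, against 118 and 116 on day 0, and Snai2, a repressor of E-cadherin, had 39.5 and 31.6 FPKM on day 7, against 24.1 and 25.9 on day 0. None of these 3 genes was called. Zeb1, another repressor of E-cadherin, had 32.6 and 28.1 FPKM on day 7, against 15.7 and 13.9 on day 0 (log2 change 0.98, just under 2-fold). Zeb1 was called higher under quantile normalization and with a pseudocount of 0.1, and its log2 change ranged from 0.81 to 1.09 over the alternatives. Twist2 fell (log2 change -1.41 ± 0.18 (SE), adjusted p = 0.000572), as did Foxf2, while Osr2 and Tbx18 rose. Once FPKM sums were made equal no factor of this list was called higher. Foxf2 lost its call without day 7 replicate 1 (log2 change -0.83), and Tbx18 on TPM and without day 7 replicate 1 (0.97) or day 0 replicate 2 (0.99).

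Surface markers divided into 3 that rose and 5 that fell of 18 tested. Nt5e, the ectonucleotidase CD73, had 14.5 and 15.2 FPKM on day 7, against 1.77 and 1.73 on day 0 (log2 change 2.53 ± 0.15 (SE), adjusted p = 7.14e-06). Ly6a, the progenitor antigen Sca-1, had 275 and 259.9 FPKM on day 7, against 64.2 and 68.4 on day 0 (log2 change 1.996 ± 0.25 (SE), adjusted p = 0.000436), and Cd34 rose by 1.25. Pdgfrb, a receptor of platelet-derived growth factor, had 32.8 and 35.0 FPKM on day 7, against 99.8 and 85.2 on day 0 (log2 change -1.42 ± 0.24 (SE), adjusted p = 0.00254), whereas its sister receptor Pdgfra had 77.6 and 73.1 FPKM on day 7, against 42.6 and 39.0 on day 0 and was not called. Mcam (-2.04), Axl (-1.38), Ncam1 (-1.11) and Cd44 (-1.04) fell. Ncam1 lost its call without day 7 replicate 2 (-0.92), and Cd44 under quantile normalization and without day 0 replicate 1 (-0.95). Thy1, whose loss marks progressing cells, had 151 and 171 FPKM on day 7, against 284 and 288 on day 0 and was not called (log2 change -0.83), though it passed the threshold on TPM (-1.02).

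The matrix was remodelled in both directions. Col3a1, the fibrillar collagen of loose connective tissue, had 2007 and 1935 FPKM on day 7, against 511 and 494 on day 0 (log2 change 1.97 ± 0.12 (SE), adjusted p = 9.83e-06). Col15a1 and Col18a1, collagens of basement membrane zones, rose by 1.81 and 1.45. Col1a1 had 3171 and 3319.6 FPKM on day 7, against 2451 and 2252 on day 0, and Col1a2 had 2198 and 2158 FPKM on day 7, against 1556 and 1457 on day 0, and neither was called. In all, 3 of 22 collagen genes rose and 1, Col4a1, fell (log2 change -1.02). That call was lost under quantile normalization, without day 7 replicate 1 (-0.99) and without day 0 replicate 1 (-0.95). Among the enzymes that modify collagen 3 of 17 rose: P4ha2, a prolyl hydroxylase, had 88.4 and 91.1 FPKM on day 7, against 34.1 and 32.3 on day 0, and Plod1, a lysyl hydroxylase, had 83.5 and 93.0 FPKM on day 7, against 33.7 and 31.7 on day 0. P3h3 was the third, and its log2 change of 1.03 was 0.91 without day 7 replicate 2 and 0.996 without day 0 replicate 2, below the threshold. Its call was also lost on TPM, without mitochondrial genes and with equal FPKM sums.

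Small leucine-rich proteoglycans, which bind collagen fibrils, gave 5 higher and none lower of 9 tested. Lum, lumican, had 624 and 572 FPKM on day 7, against 34.7 and 34.8 on day 0 (log2 change 4.06 ± 0.14 (SE), adjusted p = 8.09e-07). Dcn, decorin, had 267 and 254 FPKM on day 7, against 35.8 and 38.6 on day 0 (log2 change 2.78 ± 0.17 (SE), adjusted p = 1.06e-05). Ogn had 202 and 163 FPKM on day 7, against 59.8 and 64.1 on day 0, Omd rose by 1.25, and Aspn rose by 1.004, at the edge of the threshold, a call lost on TPM and equal FPKM sums, without mitochondrial genes, under quantile normalization, without day 7 replicate 1 (0.92) and without day 0 replicate 1 (0.998). Bgn, biglycan, averaged 1850 FPKM on day 7 against 1610 on day 0 and was not called.

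Of 23 adhesive and matricellular glycoproteins 6 fell and 2 rose, with a median change of 0.11. Thbs1, thrombospondin-1, had 384 and 370.1 FPKM on day 7, against 1249 and 1106 on day 0 (log2 change -1.64 ± 0.15 (SE), adjusted p = 8.02e-05). Fn1, fibronectin, had 374 and 396 FPKM on day 7, against 908 and 781 on day 0 (log2 change -1.13 ± 0.27 (SE), adjusted p = 0.0115). Tnc, tenascin-C, fell (log2 change -1.78), while Tnn, tenascin-N, had 118 and 126 FPKM on day 7, against 5.02 and 4.55 on day 0 (log2 change 4.41 ± 0.16 (SE), adjusted p = 8.65e-07). The growth-responsive secreted genes Ccn1 (-1.06), Ccn2 (-1.88) and Ccn4 (-1.96) fell, and Tgfbi rose (1.69). Fn1 lost its call without day 7 replicate 1 (-1.09), day 7 replicate 2 (-1.17) or day 0 replicate 1 (-1.02), and Ccn1 without day 7 replicate 1 (-0.98). Among elastic fibre genes Fbn2 and Fbln5 fell (-1.51 and -1.24) and Efemp1 and Mfap5 rose (2.35 and 1.43).

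Matrix proteases and their inhibitors gave 5 higher and 3 lower of 18; Mmp9, among the higher ones, passed the filter only through day 7. Mmp3, stromelysin-1, had the largest rise by the rule for named genes, at 186 and 188 FPKM on day 7, against 1.51 and 1.65 on day 0 (log2 change 6.19 ± 0.14 (SE), adjusted p = 1.43e-07); it lies at chromosome 9, 7445822 to 7455975 (mm10, + strand). Mmp2, gelatinase A, had 202 and 218 FPKM on day 7, against 55.5 and 53.8 on day 0, and Mmp13, collagenase-3, had 5.59 and 5.85 FPKM on day 7, against 0.614 and 0.551 on day 0. Among the inhibitors Timp3 fell (log2 change -1.17), and Timp1 averaged 218 FPKM on day 7 against 163 on day 0 and was not called.

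Contractile genes were lower almost without exception. Of 20 tested members 18 fell and none rose, with a median change of -1.48, and 17 or 18 were called under every alternative setting. Acta2, smooth muscle actin, had 266 and 296 FPKM on day 7, against 1301 and 1381 on day 0 (log2 change -2.25 ± 0.17 (SE), adjusted p = 2.52e-05). Tagln, which binds actin filaments, had 109.5 and 142 FPKM on day 7, against 611 and 638 on day 0 (log2 change -2.31 ± 0.22 (SE), adjusted p = 0.000103). Flna, which crosslinks them, had 96.0 and 105 FPKM on day 7, against 458 and 395 on day 0 (log2 change -2.07 ± 0.19 (SE), adjusted p = 9.25e-05). Myl9, Myh9 and Myh11, light and heavy chains of myosin, fell by 1.84, 1.76 and 1.75 log2 units, and Srf, the transcription factor that drives many of these genes, fell by 1.20. Tpm2 (123 FPKM on day 7 against 175 on day 0) and Smtn (29.5 FPKM on day 7 against 32.8 on day 0) were not called. The levels did not reach those of iPSCs: Acta2 averaged 281 ± 21.6 FPKM on day 7 and 10.6 ± 0.635 in iPSCs (log2 difference 4.60 ± 0.17 (SE), adjusted p = 3.27e-08).

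Srf binds a motif named the CArG box. It was found on either strand in the 250 bases before the start in 4 of the 17 contractile genes with a RefSeq promoter (GRCm38.p6). That made 21.1% of their 19 promoters, against 1.47% of 32851 promoters of all genes. All 4 genes fell, where 14 of the 16 tested contractile genes with a promoter fell. The 4 genes with a box are shown with the boxes in capitals, so that the letters around a shared motif can be compared. The Srf promoter holds a pair of boxes.
Srf: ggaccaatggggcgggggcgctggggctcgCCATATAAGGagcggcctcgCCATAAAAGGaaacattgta
Vcl: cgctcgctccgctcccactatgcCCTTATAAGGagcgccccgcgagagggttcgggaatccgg
Myl9: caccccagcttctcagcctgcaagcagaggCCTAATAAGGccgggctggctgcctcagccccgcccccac
Cnn2: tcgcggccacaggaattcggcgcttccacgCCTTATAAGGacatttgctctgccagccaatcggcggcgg
Their positions are chr17:46556205-46556274 for Srf (minus strand), chr14:20929148-20929210 for Vcl, chr2:156775273-156775342 for Myl9 and chr10:79988514-79988583 for Cnn2 (plus strand). Vcl, vinculin, had 44.7 and 47.9 FPKM on day 7, against 131 and 114 on day 0, and Cnn2, a calponin, had 75.3 and 95.4 FPKM on day 7, against 239.6 and 239 on day 0. A match of letters is a description and shows no binding.

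Immediate-early factors, which respond to serum and stretch within minutes, gave 5 lower and none higher of 14 tested. Fosb had 1.09 and 1.32 FPKM on day 7, against 36.8 and 30.2 on day 0 (log2 change -3.96 ± 0.16 (SE), adjusted p = 1.46e-06), the largest fall by the rule for named genes. Fos had 17.8 and 19.2 FPKM on day 7, against 103 and 98.6 on day 0 (log2 change -2.39 ± 0.12 (SE), adjusted p = 3.16e-06). Nr4a1 (-1.55), Egr2 (-1.33) and Egr1 (-1.16) also fell. Jun averaged 31.7 FPKM on day 7 against 47.9 on day 0 and Junb 67.7 FPKM on day 7 against 77.8 on day 0, and neither was called.

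Sterol synthesis was lower along nearly the whole pathway. Of 20 tested enzymes from acetoacetyl-CoA to cholesterol, 18 fell and none rose, with a median change of -1.497, and 16 to 19 were called under every alternative. Sqle, the squalene epoxidase, had 20.7 and 22.7 FPKM on day 7, against 83.6 and 80.5 on day 0 (log2 change -1.87 ± 0.12 (SE), adjusted p = 1.06e-05). Cyp51, the lanosterol demethylase, had 17.6 and 17.6 FPKM on day 7, against 86.2 and 86.5 on day 0 (log2 change -2.23 ± 0.13 (SE), adjusted p = 8.46e-06). Lss, which closes the sterol rings, fell by 2.104 log2 units. Sc5d averaged 9.998 FPKM on day 7 against 20.3 on day 0 and was not called. Ebp averaged 10.5 FPKM on day 7 against 17.0 on day 0, also without a call.

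Among the regulators of the pathway Srebf2 and Insig1 fell, and Scap and Insig2 were not called. Srebf2, the sterol-responsive transcription factor of the pathway, had 23.3 and 24.5 FPKM on day 7, against 77.8 and 68.5 on day 0 (log2 change -1.57 ± 0.17 (SE), adjusted p = 0.000197). Insig1, the sterol sensor's anchor, fell by 1.85. Apoe, which carries cholesterol out of cells, rose to 21.2 and 30.5 FPKM on day 7, against 5.55 and 5.29 on day 0 (log2 change 2.04 ± 0.36 (SE), adjusted p = 0.00272). Abca1, an efflux pump, had 6.05 and 5.37 FPKM on day 7, against 3.46 and 2.68 on day 0 and was not called.

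The sterol regulatory element in its strict form (TCACNCCAC) was found before the start of 1 of 15 cholesterol genes with a promoter, Hmgcs1, or 5.56% of 18 promoters, against 1.05% of all promoters. Hmgcs1, a synthase of an early step, had 48.4 and 43.9 FPKM on day 7, against 132 and 134 on day 0, and its element is shown in capitals (chr13:119690184-119690252, plus strand).
Hmgcs1: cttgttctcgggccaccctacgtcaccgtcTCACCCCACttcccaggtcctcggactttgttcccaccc

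Of 13 fatty acid synthesis genes 8 fell and 1 rose. Fads2, a desaturase of polyunsaturated fats, had 14.5 and 15.3 FPKM on day 7, against 92.2 and 90.9 on day 0 (log2 change -2.54 ± 0.11 (SE), adjusted p = 1.46e-06). Scd2 had 107 and 108 FPKM on day 7, against 507 and 467 on day 0 (log2 change -2.17 ± 0.13 (SE), adjusted p = 9.86e-06), whereas Scd1, its near relative, had 74.7 and 70.9 FPKM on day 7, against 85.1 and 77.3 on day 0 and was not called. Fasn, fatty acid synthase, had 19.8 and 21.5 FPKM on day 7, against 74.4 and 62.5 on day 0, and Acly, Acaca, Elovl6, Fads1 and Srebf1 fell with log2 changes of -1.71, -1.31, -1.40, -1.82 and -1.02. Srebf1, the factor that drives this list, lost its call under quantile normalization and without day 0 replicate 1 (-0.93). The member that rose was Thrsp, which responds to thyroid hormone (2.08 and 2.21 FPKM on day 7, against 0.0996 and 0.106 on day 0).

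Lipid uptake and storage genes rose while synthesis fell. Of 24 tested, 12 were higher and none lower. Fabp4, the fatty acid carrier of adipocytes and macrophages, had 101 and 115 FPKM on day 7, against 1.39 and 3.10 on day 0 (log2 change 5.12 ± 0.23 (SE), adjusted p = 2.04e-06), and the 2 day 0 libraries differed from each other by more than 2-fold. Pparg, the receptor that drives adipocyte genes, had 6.78 and 6.77 FPKM on day 7, against 1.39 and 1.49 on day 0 (log2 change 1.67 ± 0.15 (SE), adjusted p = 7.3e-05), and Cebpa, its partner, had 10.02 and 10.02 FPKM on day 7, against 3.21 and 2.75 on day 0. Lpl, which releases fatty acids from lipoproteins, had 41.0 and 38.4 FPKM on day 7, against 9.23 and 9.26 on day 0, and its inhibitor Angptl4 had 29.6 and 29.8 FPKM on day 7, against 2.12 and 2.23 on day 0. Cd36, a fatty acid receptor, had 6.21 and 7.61 FPKM on day 7, against 0.527 and 0.518 on day 0.

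Products of mature fat cells were detected as well. Adipoq, adiponectin, had 9.35 and 12.07 FPKM on day 7, against 0.128 and 0.280 on day 0 (log2 change 3.28 ± 0.14 (SE), adjusted p = 1.46e-06). Plin1, which coats lipid droplets, had 7.17 and 9.01 FPKM on day 7, against 0.195 and 0.121 on day 0, and Cidec, which enlarges them, had 3.41 and 3.94 FPKM on day 7, against 0 and 0 on day 0. All 4 tested adipocyte markers were called, while Lep and Retn stayed below the filter. Cd36, Adipoq, Plin1, Cidec and Thrsp passed the filter only through the 2 day 7 libraries, so a difference was fixed for them in advance. They include every tested adipocyte marker but Cebpa, so most of the count of 4 was fixed too. The oxidation enzymes Cpt1a (28.1 FPKM on day 7 against 16.1 on day 0), Acadm (24.3 FPKM on day 7 against 16.7 on day 0) and Hadha (30.3 FPKM on day 7 against 30.4 on day 0) were not called.

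**Figure D3:**
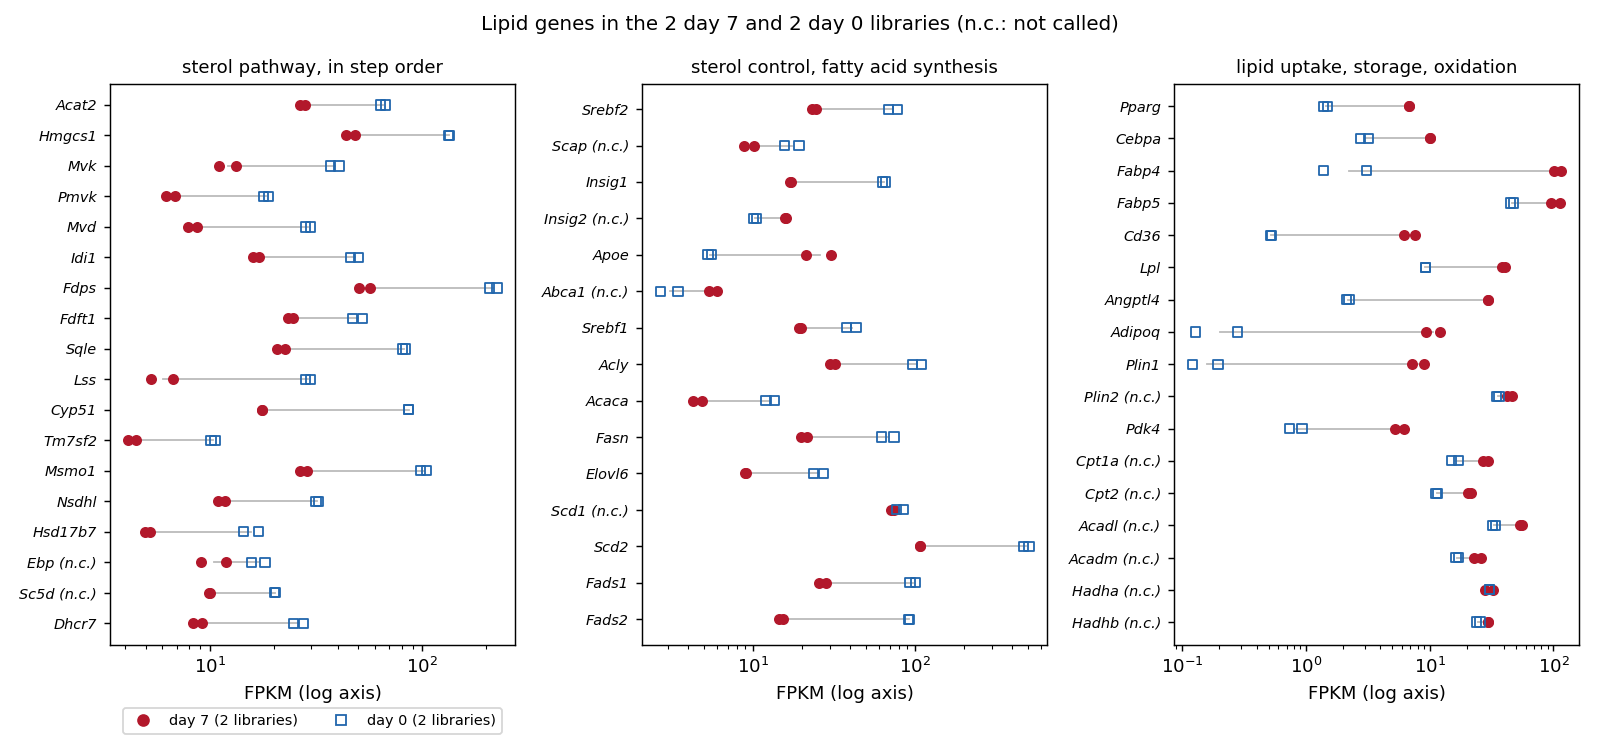
FPKM on a log axis of sterol pathway genes in step order (left), sterol control and fatty acid synthesis genes (middle) and lipid uptake, storage and oxidation genes (right), with 2 day 7 libraries (red circles) and 2 day 0 libraries (blue squares) per gene. Every pathway enzyme shown lies lower on day 7, and Fabp4, Adipoq and Plin1 lie highest above day 0 in the right panel, which leaves out Cidec because it was listed at 0 on day 0.

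The hypoxia response rose broadly. Of 27 tested members 16 were higher and none lower, with a median change of 1.49, and 16 to 18 were called under every alternative. Ndufa4l2, which lowers respiratory complex I activity, had 98.0 and 118 FPKM on day 7, against 0.552 and 0.855 on day 0 (log2 change 6.002 ± 0.35 (SE), adjusted p = 7.13e-06). Car9, a carbonic anhydrase of the cell surface, had 61.8 and 61.6 FPKM on day 7, against 0.237 and 0.439 on day 0 (log2 change 5.55 ± 0.13 (SE), adjusted p = 1.43e-07). Egln3, a prolyl hydroxylase that marks the hypoxia factors for destruction, had 53.3 and 55.5 FPKM on day 7, against 2.85 and 2.74 on day 0 (log2 change 3.87 ± 0.11 (SE), adjusted p = 3.64e-07). Bnip3, which directs mitochondria to autophagy, had 234 and 214 FPKM on day 7, against 15.6 and 19.9 on day 0 (log2 change 3.59 ± 0.18 (SE), adjusted p = 3.33e-06). Pdk1, which blocks pyruvate entry into mitochondria, had 38.1 and 36.2 FPKM on day 7, against 5.39 and 4.68 on day 0 (log2 change 2.66 ± 0.13 (SE), adjusted p = 2.38e-06). Both day 7 libraries lay above both day 0 libraries in each of these 5 genes, which were picked for large called rises, so this adds no support.

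The factors themselves and some classical targets did not follow. Hif1a had 93.2 and 86.6 FPKM on day 7, against 68.1 and 64.6 on day 0 (log2 change 0.43), Vegfa had 35.3 and 37.6 FPKM on day 7, against 29.6 and 29.3 on day 0 (0.30) and Adm had 27.3 and 28.7 FPKM on day 7, against 19.5 and 20.3 on day 0 (0.47), and none was called. Ddit4 averaged 24.8 FPKM on day 7 against 25.5 on day 0. Epas1, the second oxygen-regulated factor, had 2.71 and 2.83 FPKM on day 7, against 0.909 and 1.003 on day 0 and was just below 2-fold (0.95). Epas1 was called higher on TPM, after rescaling without mitochondrial genes and with a pseudocount of 0.1. Against iPSCs, Car9 averaged 61.6 ± 0.140 FPKM on day 7 and 0.178 ± 0.0333 in iPSCs (SD, n = 2 each, log2 difference 5.73 ± 0.13 (SE), adjusted p = 5.11e-09).

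The core of the hypoxia response element (ACGTG, either strand) was present before the start of 12 of 21 hypoxia genes with a promoter. That made 50.0% of 28 promoters, against 16.6% of all promoters and 21.2% of the promoters of tested genes. Of those 12 genes 9 were called, where 13 of all 21 with a promoter were called. Hif1a, Vegfa and Ddit4 hold the letters too without a call. The windows of 3 called genes are shown with the core in capitals (on the opposite strand in Car9), since they give the sequence context that the letters share.
Car9: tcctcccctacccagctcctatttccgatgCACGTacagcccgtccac
Egln1: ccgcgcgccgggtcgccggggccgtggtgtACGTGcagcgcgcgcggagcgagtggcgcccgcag
Egln3: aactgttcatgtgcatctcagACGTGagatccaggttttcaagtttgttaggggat
They lie at chr4:43506978-43507025 (Car9, plus strand), chr8:124949288-124949352 (Egln1, minus strand) and chr12:54204069-54204124 (Egln3, minus strand). Egln1, the main oxygen sensor of the family, had 56.8 and 57.3 FPKM on day 7, against 19.2 and 19.9 on day 0.

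Glycolysis rose in part. Changes were positive in 20 of 21 tested members, with a median of 0.76, and 20 had an unadjusted p under 0.05 in limma. Of 21 tested members 9 were higher and none lower, but only 5 on TPM, with equal FPKM sums and without day 7 replicate 2, where Gapdh, Tpi1 and Pgk1 lost their calls (log2 changes 0.92, 0.97 and 0.91 without that library). Aldoc, an aldolase, had 8.82 and 10.3 FPKM on day 7, against 1.02 and 0.824 on day 0 (log2 change 2.45 ± 0.17 (SE), adjusted p = 1.92e-05). Slc16a3, which exports lactate, had 37.4 and 42.6 FPKM on day 7, against 11.1 and 11.1 on day 0 (log2 change 1.76 ± 0.18 (SE), adjusted p = 0.000157), and Slc2a3, a glucose transporter, had 15.4 and 16.0 FPKM on day 7, against 4.06 and 3.81 on day 0 (log2 change 1.76 ± 0.12 (SE), adjusted p = 1.4e-05). Gapdh and Tpi1 rose by 1.11 and 1.11 log2 units and Pgk1 by 1.005, at the edge of the threshold, and reads of Gapdh may be shared with its many processed pseudogenes. Hk2 (5.54 FPKM on day 7 against 7.42 on day 0), Pkm (822 FPKM on day 7 against 729 on day 0) and Ldha (826 FPKM on day 7 against 488 on day 0) were not called.

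The mitochondrial side was uneven. None of 23 genes of the tricarboxylic acid cycle was called in limma, although 10 had an unadjusted p under 0.05, with changes between -0.72 and 0.52. Of 37 tested nuclear respiratory chain genes, 2 rose: Cox4i2, the isoform of cytochrome oxidase used at low oxygen, had 23.3 and 28.7 FPKM on day 7, against 0.910 and 0.995 on day 0 (log2 change 3.78 ± 0.17 (SE), adjusted p = 1.89e-06), while the common isoform Cox4i1 averaged 215 FPKM on day 7 against 202 on day 0. Cox6c was the other (221 and 235 FPKM on day 7, against 88.8 and 88.2 on day 0). Genes of the mitochondrial genome rose in 11 of 13 cases, with a median change of 1.602, but in only 3 of 13 after quantile normalization, which compresses the highest values. Of these, mt-Co2 had 5779.9 and 4792 FPKM on day 7, against 1656 and 1887 on day 0 (log2 change 1.57 ± 0.30 (SE), adjusted p = 0.00421), and mt-Nd5 averaged 2682 FPKM on day 7 against 836 on day 0. The overlapping mt-Nd6 on the opposite strand averaged 2830 FPKM on day 7 against 918 on day 0, and the reads of these 2 cannot be separated if counted without strand.

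**Figure D4:**
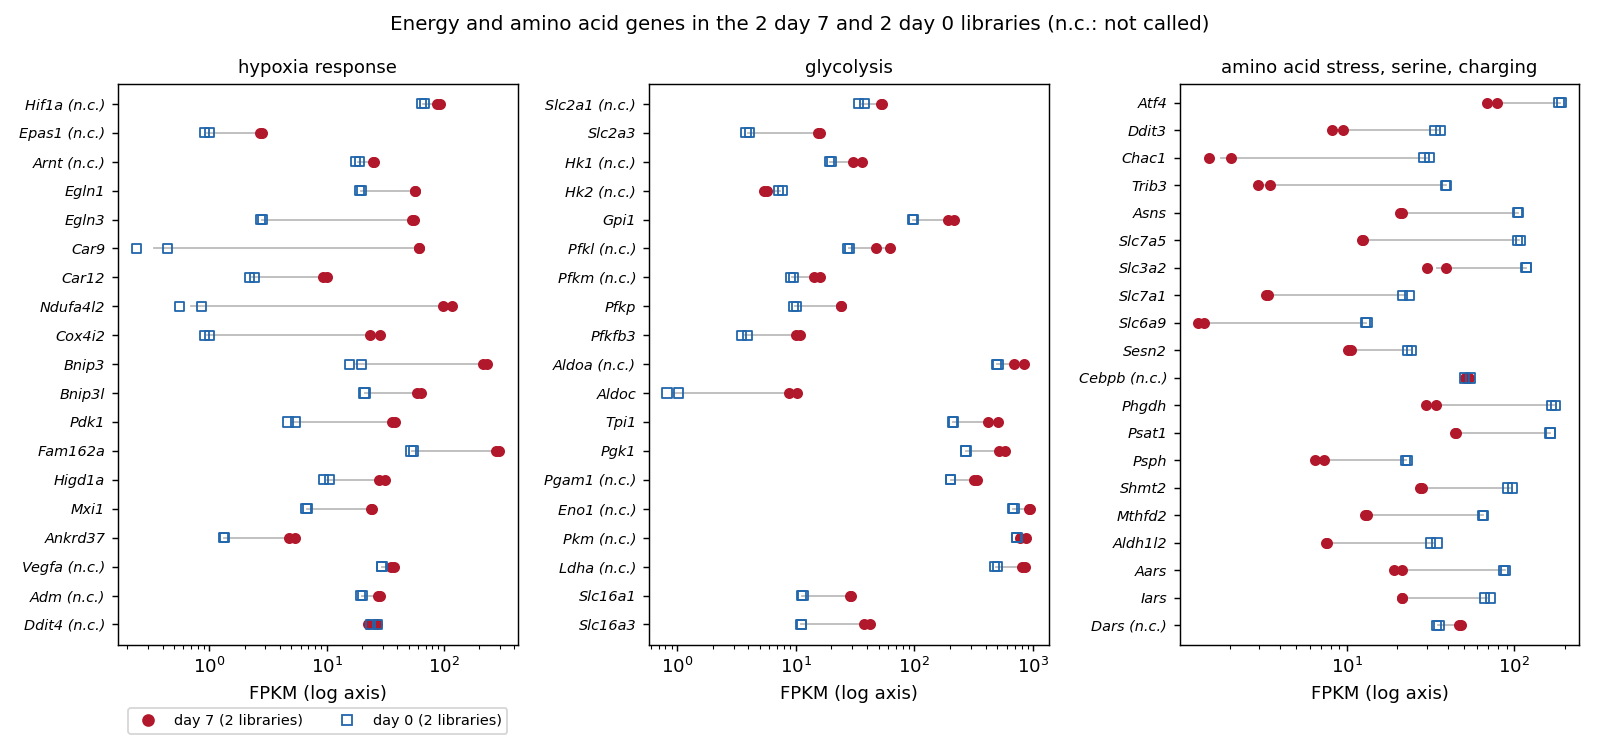
FPKM on a log axis of hypoxia genes (left, with Cox4i2), glycolysis genes (middle, with Pfkfb3) and genes of amino acid stress, serine synthesis and tRNA charging (right), with 2 day 7 libraries (red circles) and 2 day 0 libraries (blue squares) per gene. Car9 and Ndufa4l2 lie furthest to the right of their day 0 values. Most glycolysis genes lie higher on day 7 but by less, and the called genes of the right panel all lie lower on day 7.

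Genes of the amino acid stress response fell together. Of 25 tested, 14 were lower and none higher, with a median change of -1.12. Chac1, which breaks down glutathione, had 1.51 and 2.04 FPKM on day 7, against 28.9 and 31.1 on day 0 (log2 change -3.49 ± 0.21 (SE), adjusted p = 9.78e-06). Trib3, a pseudokinase that dampens the response, had 2.95 and 3.49 FPKM on day 7, against 39.5 and 39.0 on day 0 (log2 change -3.25 ± 0.20 (SE), adjusted p = 1.06e-05). Asns, asparagine synthetase, had 20.8 and 21.3 FPKM on day 7, against 105 and 106 on day 0 (log2 change -2.27 ± 0.13 (SE), adjusted p = 6.98e-06). The amino acid transporters Slc7a5 (12.4 and 12.5 FPKM on day 7, against 109 and 104 on day 0), Slc7a1 (3.40 and 3.30 FPKM on day 7, against 23.8 and 21.4 on day 0) and Slc6a9 (1.41 and 1.29 FPKM on day 7, against 13.2 and 12.9 on day 0) fell as well. Atf4, the transcription factor of the response, had 68.6 and 79.2 FPKM on day 7, against 185 and 191 on day 0 (log2 change -1.34 ± 0.31 (SE), adjusted p = 0.00998), and Ddit3, also called Chop, had 8.16 and 9.52 FPKM on day 7, against 33.6 and 36.3 on day 0. The call of Atf4 was lost without day 7 replicate 1 (-1.24), day 0 replicate 1 (-1.36) or day 0 replicate 2 (-1.32). Cebpb (52.5 FPKM on day 7 against 52.7 on day 0) was not called. The day 7 medium alone held added nonessential amino acids, and its part in these changes was not tested.

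An amino acid response element (TGATGNAA, either strand) stood before the start of 7 of 22 genes of the list with a promoter, 23.3% of 30 promoters, against 3.45% of all promoters. Of the 6 tested holders Chac1, Asns and Jdp2 fell, and Slc7a11, Nupr1 and Vldlr were not called. Among all 21 tested genes of the list with a promoter 13 fell, so holders were not called more often. The 3 that fell are shown with the element in capitals (on the opposite strand in Chac1), to set its neighbourhood beside the size of the change.
Chac1: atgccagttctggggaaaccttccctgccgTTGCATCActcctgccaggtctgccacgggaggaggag
Asns: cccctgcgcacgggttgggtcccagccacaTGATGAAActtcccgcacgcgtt
Jdp2: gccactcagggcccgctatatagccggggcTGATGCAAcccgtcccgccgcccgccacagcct
Their positions are chr2:119351019-119351086 (Chac1, plus strand), chr6:7693210-7693262 (Asns, minus strand) and chr12:85599353-85599415 (Jdp2, plus strand). Jdp2, a repressor of the AP-1 family, had 14.8 and 15.8 FPKM on day 7, against 39.2 and 37.8 on day 0.

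Serine synthesis and one-carbon genes gave 6 lower and 2 higher of 19. Phgdh, the first enzyme of serine synthesis, had 29.7 and 34.2 FPKM on day 7, against 166 and 177 on day 0 (log2 change -2.39 ± 0.14 (SE), adjusted p = 9.24e-06). Psat1, the next step, had 44.0 and 45.0 FPKM on day 7, against 164 and 163 on day 0. Psph, the last step, had 6.49 and 7.32 FPKM on day 7, against 22.3 and 23.03 on day 0. Shmt2 (-1.73), Mthfd2 (-2.24) and Aldh1l2 (-1.99), the mitochondrial folate enzymes, fell too, whereas the cytosolic Shmt1 averaged 3.98 FPKM on day 7 against 4.46 on day 0 and Mthfd1 11.5 FPKM on day 7 against 17.6 on day 0 without a call. Aldh1l1, the cytosolic relative of Aldh1l2, rose (7.66 and 6.45 FPKM on day 7, against 0.508 and 1.10 on day 0; log2 change 2.18 ± 0.20 (SE), adjusted p = 9.26e-05), and so did the glycine cleavage gene Gldc, by 1.20.

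Cytosolic tRNA synthetases gave 12 lower and none higher of 20 tested, with a median change of -1.13. Aars, which charges alanine, had 19.11 and 21.5 FPKM on day 7, against 88.5 and 86.6 on day 0 (log2 change -2.06 ± 0.13 (SE), adjusted p = 9.86e-06). Iars and Cars fell by 1.64 and 1.45 log2 units. Dars (47.3 FPKM on day 7 against 34.8 on day 0), Qars (35.9 FPKM on day 7 against 36.5 on day 0) and Kars (53.6 FPKM on day 7 against 68.3 on day 0) were not called.

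Ribosome assembly genes fell in part, and no ribosomal protein gene was called. Of 35 tested ribosome biogenesis genes 13 fell and none rose, with a median change of -0.81, and 20 fell on TPM. Rrp12, a nuclear export factor of pre-ribosomes, had 1.84 and 1.70 FPKM on day 7, against 9.77 and 8.81 on day 0 (log2 change -1.89 ± 0.13 (SE), adjusted p = 1.56e-05). Ddx21, a nucleolar helicase, had 11.7 and 12.7 FPKM on day 7, against 39.2 and 37.6 on day 0 (log2 change -1.58 ± 0.11 (SE), adjusted p = 1.8e-05), and Polr1a, the largest subunit of RNA polymerase I, had 2.78 and 2.86 FPKM on day 7, against 9.04 and 8.27 on day 0. The 30 ribosomal protein genes had no call in limma (3 had an unadjusted p under 0.05), with changes between -0.49 and 0.94, and such genes have many pseudogenes that can share their reads. Npm1 averaged 433 FPKM on day 7 against 409.5 on day 0.

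Chaperones of the endoplasmic reticulum fell in 4 of 20 cases (8 on TPM). Hspa5, the master chaperone BiP, had 192 and 192 FPKM on day 7, against 441 and 362 on day 0 (log2 change -1.05 ± 0.14 (SE), adjusted p = 0.000716), and Hyou1 had 16.8 and 17.8 FPKM on day 7, against 60.8 and 56.2 on day 0; the call of Hspa5 was lost without day 0 replicate 1 (-0.91). Of 18 cytosolic and mitochondrial chaperones 4 fell, led by Hspa9 of mitochondria (66.0 and 75.5 FPKM on day 7, against 238 and 240.4 on day 0; log2 change -1.75 ± 0.13 (SE), adjusted p = 3.05e-05), with Hspd1 lower by 1.25. Of 34 lysosome and autophagy genes, only Ctsh was called (log2 change 1.08), and its call was lost with equal FPKM sums, without day 7 replicate 2 (0.99) and without day 0 replicate 1 (0.99).

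Acute-phase and complement genes rose in 13 of 17 cases, with none lower and a median change of 1.70; 12 to 15 were called under every alternative. Hp, haptoglobin, had 34.3 and 36.9 FPKM on day 7, against 0.622 and 0.694 on day 0 (log2 change 4.46 ± 0.20 (SE), adjusted p = 2.04e-06). Lcn2, the iron-binding lipocalin, had 9.52 and 11.9 FPKM on day 7, against 0 and 0.0466 on day 0 (log2 change 3.51 ± 0.13 (SE), adjusted p = 8.65e-07). Serpina3n, a protease inhibitor, had 65.5 and 64.9 FPKM on day 7, against 6.53 and 6.93 on day 0 (log2 change 3.10 ± 0.12 (SE), adjusted p = 1.39e-06). C1s1 and C1ra are proteases that start the complement cascade. C1s1 had 37.6 and 42.3 FPKM on day 7, against 2.25 and 2.15 on day 0. C1ra had 19.5 and 24.6 FPKM on day 7, against 3.13 and 2.34 on day 0, and their inhibitor Serping1 had 41.0 and 43.1 FPKM on day 7, against 5.61 and 5.72 on day 0. C3, the central complement protein, reached only 2.95 and 2.70 FPKM on day 7, against 0.186 and 0.167 on day 0, and C3, C4b, Cfd and Lcn2 passed the filter only through day 7. C1s1, C1ra and Serpina3n have close paralogs in the mouse that may share their reads. Cfd, adipsin, is also a product of fat cells and was listed at 0 on day 0 (2.41 and 2.57 FPKM on day 7, against 0 and 0 on day 0).

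Interferon-response genes gave 9 higher and none lower of 33, with a median change of 0.69. Ifi27l2a had 4.999 and 9.08 FPKM on day 7, against 0.523 and 0.204 on day 0 (log2 change 2.52 ± 0.32 (SE), adjusted p = 0.000519). Ifit1, an RNA sensor of infected cells, had 24.7 and 23.3 FPKM on day 7, against 5.92 and 6.14 on day 0 (log2 change 1.83 ± 0.14 (SE), adjusted p = 2.95e-05), and Ifit3 had 17.2 and 20.0 FPKM on day 7, against 5.59 and 5.16 on day 0. Isg15 (21.9 and 32.5 FPKM on day 7, against 19.7 and 18.9 on day 0) and Irf7 (5.37 and 7.41 FPKM on day 7, against 3.64 and 3.31 on day 0), which usually move with them, were not called. Infection with lentivirus, factors, replating, medium and time all differed between the groups, and the part of each in these rises was not tested.

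The interferon-stimulated element (GAAANNGAA, either strand) stood before the start of 15 of 27 genes with a promoter, 48.4% of 31 promoters, against 7.13% of all promoters. Of the 14 tested holders only Ifit1 and Ifit3 rose, where 6 of all 26 tested genes with a promoter rose, so holders were not called more often. They are shown beside Isg15, which holds the element and was not called, with each match in capitals (overlapping matches run together).
Ifit1: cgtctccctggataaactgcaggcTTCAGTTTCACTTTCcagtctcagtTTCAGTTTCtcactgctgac
Ifit3: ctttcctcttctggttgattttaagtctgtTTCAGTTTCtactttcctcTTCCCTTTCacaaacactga
Isg15: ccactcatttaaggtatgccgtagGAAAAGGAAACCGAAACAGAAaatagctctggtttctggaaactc
The windows lie at chr19:34640756-34640824 (Ifit1, plus strand), chr19:34583378-34583446 (Ifit3, plus strand) and chr4:156200852-156200920 (Isg15, minus strand).

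Antigen presentation genes rose in 5 of 16 cases, but in 2 with equal FPKM sums and in 3 without day 7 replicate 1. H2-T23, a class Ib molecule, had 11.04 and 10.7 FPKM on day 7, against 2.75 and 3.69 on day 0 (log2 change 1.501 ± 0.15 (SE), adjusted p = 0.000115), and H2-K1, a class I heavy chain, had 28.7 and 27.5 FPKM on day 7, against 11.3 and 12.8 on day 0. Class I genes are near-identical copies, so reads may be shared between them. B2m, their light chain, had 403 and 394 FPKM on day 7, against 192 and 215 on day 0 (log2 change 0.97, not called).

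Chemokines and cytokines divided into 5 higher and 3 lower of 18. Cxcl12, which guides stem and blood cells, had 216 and 229 FPKM on day 7, against 71.5 and 68.1 on day 0 (log2 change 1.66 ± 0.20 (SE), adjusted p = 0.000382). Cxcl5, a neutrophil attractant, had 137 and 129 FPKM on day 7, against 30.2 and 34.3 on day 0 (log2 change 2.01 ± 0.17 (SE), adjusted p = 4.98e-05). Ccl8 had 7.72 and 7.08 FPKM on day 7, against 0.0861 and 0.299 on day 0, and the alarmin Il33 had 7.51 and 6.16 FPKM on day 7, against 0.885 and 0.924 on day 0. Ccl2, a monocyte attractant, fell (25.6 and 24.6 FPKM on day 7, against 52.6 and 58.8 on day 0; log2 change -1.12 ± 0.12 (SE), adjusted p = 0.000187), as did Ptgs2, the inducible prostaglandin synthase (10.4 and 11.3 FPKM on day 7, against 36.4 and 34.6 on day 0). Il6 averaged 0.370 FPKM on day 7 against 1.59 on day 0 and was not called, and Il1b was listed at 0 in all 4 libraries.

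Of 36 replication and mitosis genes 3 fell and 1 rose, a share near the 10.1% called among all genes. Those that fell were Mcm5, Mcm2 and their loader Cdc6, and 7 fell on TPM. Mcm5 had 13.1 and 13.7 FPKM on day 7, against 31.6 and 30.4 on day 0 (log2 change -1.15 ± 0.13 (SE), adjusted p = 0.000274). Mcm2 had 13.3 and 13.9 FPKM on day 7, against 29.5 and 28.2 on day 0, and lost its call under quantile normalization. Cdc6 had 1.89 and 1.99 FPKM on day 7, against 5.66 and 5.801 on day 0. Of the mitotic genes Mki67 averaged 39.0 FPKM on day 7 against 25.7 on day 0 without a call. Plk1 averaged 32.8 FPKM on day 7 against 38.3 on day 0, also without a call, and Ccnb2, cyclin B2, rose (72.1 and 66.1 FPKM on day 7, against 29.2 and 30.04 on day 0; log2 change 1.19 ± 0.10 (SE), adjusted p = 6.48e-05). The list of D cyclins, Cdk inhibitors and p53 targets had 1 higher and 1 lower of 27 tested, a share below the 10.1% called among all genes. Cdkn2a, whose products p16 and p19 restrain cycling and reprogramming, had 39.6 and 39.5 FPKM on day 7, against 10.6 and 9.06 on day 0 (log2 change 1.91 ± 0.26 (SE), adjusted p = 0.00066). Ccnd2, cyclin D2, fell (-1.02), but its call was lost under quantile normalization and without day 7 replicate 1 (-0.98) or day 0 replicate 1 (-0.94). Cdkn1a, the p53 target p21, averaged 79.9 FPKM on day 7 against 90.2 on day 0, and Ccnd1 64.7 FPKM on day 7 against 54.7 on day 0, both without a call.

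Growth factor genes were called in both directions. Igfbp5, which binds insulin-like growth factors, had 13.9 and 14.1 FPKM on day 7, against 196 and 167 on day 0 (log2 change -3.60 ± 0.20 (SE), adjusted p = 6e-06). Igf2, the fetal growth factor, fell (262 and 252 FPKM on day 7, against 705 and 653 on day 0; log2 change -1.40 ± 0.30 (SE), adjusted p = 0.00712), while Igf1, the postnatal one, rose (20.1 and 18.5 FPKM on day 7, against 3.90 and 3.46 on day 0; log2 change 2.12 ± 0.13 (SE), adjusted p = 9.17e-06). Igfbp3 and Igfbp4 rose by 1.30 and 1.08, the second not on TPM or equal FPKM sums. Of 17 genes of this axis 3 rose and 3 fell, but 5 fell on TPM and 1 without day 0 replicate 1, where Igf2 (-1.34) and the scavenging receptor Igf2r (-0.86) lost their calls. In the TGF-beta and BMP list 5 fell and 2 rose of 23. Tgfb3 (30.3 and 35.4 FPKM on day 7, against 96.1 and 87.4 on day 0) and Inhba, the activin subunit (13.2 and 12.7 FPKM on day 7, against 40.7 and 38.4 on day 0), fell, together with Tgfb1 and Nog (which passed the filter only through day 0), and Bmp2 and Tgfbr3 rose by 1.07 and 1.29. Tgfb1 lost its call without day 7 replicate 1 (-0.93) or day 0 replicate 1 (-0.98).

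Of 18 Wnt genes, Dkk2, a secreted inhibitor, rose most (105 and 101 FPKM on day 7, against 11.03 and 11.4 on day 0; log2 change 3.09 ± 0.13 (SE), adjusted p = 1.46e-06), and Lgr5 and Nkd2 fell by 1.30 and 1.38. Axin2, the common readout of the pathway, averaged 1.31 FPKM on day 7 against 2.39 on day 0 and was not called. Feedback genes of ERK went both ways, with Spry2, Etv1 and Etv5 higher (1.23, 1.30 and 1.33) and Dusp4 and Dusp5 lower (-1.59 and -1.11).

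Detoxification and metal genes gave 5 higher and 1 lower of 15. Aldh3a1, an aldehyde dehydrogenase, had 10.8 and 14.4 FPKM on day 7, against 0.0288 and 0 on day 0 (log2 change 3.73 ± 0.15 (SE), adjusted p = 1.46e-06). The metallothioneins Mt1 and Mt2, which bind zinc, rose as well. Mt1 had 242 and 215 FPKM on day 7, against 59.3 and 80.3 on day 0. Mt2 had 121 and 133 FPKM on day 7, against 23.5 and 24.7 on day 0. Gpx3, a secreted peroxidase, had 40.2 and 41.0 FPKM on day 7, against 6.74 and 7.16 on day 0. The Nrf2 targets Nqo1 (11.04 FPKM on day 7 against 7.26 on day 0) and Hmox1 (32.6 FPKM on day 7 against 37.3 on day 0) were not called, and Txnrd1, another target, fell by 1.04. Of 13 retinoid genes Rbp4 rose (4.88 and 4.55 FPKM on day 7, against 0.415 and 1.06 on day 0) and Rdh10 fell by 1.02, at the edge of the threshold and not called without day 0 replicate 2 (-1.0).

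Chromatin genes were set against the same background of 10.1%. Of 9 DNA methylation genes 2 rose: Dnmt3l, the cofactor of de novo methylation, had 2.16 and 3.01 FPKM on day 7, against 0.199 and 0.197 on day 0 (log2 change 1.57 ± 0.17 (SE), adjusted p = 0.000201), and Tet2, a demethylation enzyme, had 7.32 and 6.39 FPKM on day 7, against 1.94 and 1.79 on day 0 (log2 change 1.45 ± 0.22 (SE), adjusted p = 0.0012). Dnmt1 averaged 19.14 FPKM on day 7 against 35.6 on day 0 and was not called. Ezh1 was the only one of 19 Polycomb genes called (6.65 and 8.105 FPKM on day 7, against 3.09 and 2.72 on day 0), a call lost with equal FPKM sums and without day 7 replicate 2 (log2 change 1.10 with it and 0.97 without), and Kdm7a the only one of 14 histone demethylases (4.46 and 3.64 FPKM on day 7, against 1.02 and 1.16 on day 0). Of 18 imprinted genes 2 fell and 2 rose. Mest fell (24.4 and 26.03 FPKM on day 7, against 93.8 and 92.8 on day 0; log2 change -1.85 ± 0.12 (SE), adjusted p = 1.32e-05) and Peg10 rose (21.6 and 19.7 FPKM on day 7, against 8.44 and 7.70 on day 0), while Meg3 averaged 116 FPKM on day 7 against 118 on day 0. Nnat fell (-1.11) and Phlda2 rose (1.08). Nnat lost its call with no filter and without any 1 of the 4 libraries (-0.95, -1.27, -1.14 and -1.07). Phlda2 lost its call under quantile normalization and without day 7 replicate 2 (0.96).

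Of 16 HoxA and HoxC genes, which mark position along the body and limbs, 4 fell and 1 rose, and of 13 HoxB and HoxD genes 1 fell, where 3.91% of all genes were called lower and 6.21% higher. Hoxc10 had 1.72 and 1.64 FPKM on day 7, against 6.56 and 7.59 on day 0 (log2 change -1.59 ± 0.15 (SE), adjusted p = 8.75e-05), and Hoxc9, Hoxc11 and Hoxc5 were the other HoxC genes that fell. Hoxc11 passed the filter only through day 0. Hoxc5 and Hoxc11 lost their calls without day 7 replicate 1 (-0.99 and -0.93) or day 0 replicate 1 (-0.94 and -0.94). Hoxb9 had 4.94 and 5.15 FPKM on day 7, against 16.0 and 15.2 on day 0. Hoxa13, a gene of distal limbs, rose (18.5 and 16.4 FPKM on day 7, against 7.53 and 7.19 on day 0), a call lost with equal FPKM sums, and Hoxd13 averaged 44.3 FPKM on day 7 against 32.5 on day 0.

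Markers of other cells in MEF cultures were checked beside these changes. Macrophage markers summed to 17.0 and 17.7 FPKM on day 7, against 31.9 and 34.6 on day 0, with 1 of 9 tested markers, Csf1r (0.308 and 0.531 FPKM on day 7, against 2.18 and 2.21 on day 0), called lower. Csf1r and Tyrobp passed the filter only through day 0, so a difference was fixed for them in advance. On TPM or after rescaling without mitochondrial genes 5 were called lower, 3 with quantile normalization, a pseudocount of 0.1 or equal FPKM sums, 3 when day 7 replicate 1 or day 7 replicate 2 was left out, and 2 when day 0 replicate 1 or day 0 replicate 2 was. Adgre1 and Ptprc, which define macrophages and leukocytes, stayed below the filter, as did Mrc1. C1qa averaged 0.606 FPKM on day 7 against 1.82 on day 0 and Tyrobp 0.491 FPKM on day 7 against 1.54 on day 0, and neither was called. Macrophages also express complement and interferon genes, Fabp4 and Apoe. Adipocyte markers summed to 31.0 and 36.2 FPKM on day 7, against 3.57 and 3.25 on day 0. Muscle markers fell in 4 of 5 cases: Des had 2.79 and 2.75 FPKM on day 7, against 19.4 and 19 on day 0 (log2 change -2.42 ± 0.16 (SE), adjusted p = 1.4e-05), Actc1 had 0.0294 and 0.0388 FPKM on day 7, against 3.34 and 4.39 on day 0 and Tnnt2 had 0 and 0.238 FPKM on day 7, against 1.91 and 2.64 on day 0. Actc1 and Tnnt2 also passed the filter only through day 0. The muscle factors Myod1 and Myog were listed at 0 on day 7. Muscle markers summed to 9.05 and 9.84 FPKM on day 7, against 40.8 and 41.6 on day 0. Endothelial markers summed to 4.66 and 7.46 FPKM on day 7, against 5.09 and 4.21 on day 0, with Cdh5 below the filter and none of 3 tested called in limma (2 had an unadjusted p under 0.05). Schwann and neural crest markers summed to 2.91 and 2.35 FPKM on day 7, against 2.48 and 2.42 on day 0, again with none of 3 called (1 had an unadjusted p under 0.05). Among neural markers Stmn2 rose (36.9 and 36.0 FPKM on day 7, against 3.45 and 3.55 on day 0; log2 change 3.06 ± 0.11 (SE), adjusted p = 8.65e-07) and Tubb3 fell (3.67 and 4.14 FPKM on day 7, against 14.8 and 16.0 on day 0; log2 change -1.74 ± 0.20 (SE), adjusted p = 0.000266). Of the extra-embryonic endoderm markers Sox17, Afp and Ttr were listed at 0 in all 4 libraries, and Gata6 fell (-1.04). Of 5 tested trophoblast markers only Tfap2c, a gene of trophoblast and germ cells, rose (3.25 and 2.76 FPKM on day 7, against 0.0171 and 0.0138 on day 0). The part of other cells in the gene groups was not tested.

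Genes outside the lists stood among the largest changes too. Car3, a carbonic anhydrase of fat and muscle, had 74.9 and 70.3 FPKM on day 7, against 1.62 and 1.03 on day 0 (log2 change 4.99 ± 0.15 (SE), adjusted p = 5e-07). Comp, a cartilage and tendon matrix protein, had 54.4 and 59.3 FPKM on day 7, against 1.09 and 0.869 on day 0 (log2 change 4.87 ± 0.13 (SE), adjusted p = 3.37e-07). Agtr2, an angiotensin receptor of fetal mesenchyme, had 125 and 109 FPKM on day 7, against 4.57 and 4.34 on day 0 (log2 change 4.43 ± 0.16 (SE), adjusted p = 8.65e-07). Among the falls, Gjb2, connexin 26, had 1.13 and 1.22 FPKM on day 7, against 11.5 and 10.7 on day 0 (log2 change -2.48 ± 0.11 (SE), adjusted p = 2.09e-06), and Tnmd, a tendon membrane protein, had 4.16 and 6.57 FPKM on day 7, against 30.01 and 32.0 on day 0 (log2 change -2.36 ± 0.19 (SE), adjusted p = 3.8e-05).

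The medians of the lists over the 4-factor series place day 7 in its sequence. From day 0 the hypoxia list changed by 0.07 on day 2, 1.10 on day 4 and 1.49 on day 7, with -0.18 in iPSCs. The contractile list changed by -0.64 on day 2, -2.36 on day 4 and -1.48 on day 7, with -4.04 in iPSCs. Cholesterol synthesis changed by -0.45 on day 2, -1.24 on day 4 and -1.497 on day 7, with -0.12 in iPSCs. The interferon list changed by -0.79 on day 2, 0.00 on day 4 and 0.69 on day 7, with -0.21 in iPSCs. Ribosome biogenesis changed by 0.53 on day 2, 0.18 on day 4 and -0.81 on day 7, with 1.54 in iPSCs, and the tRNA synthetases by -0.20 on day 2, -0.33 on day 4 and -1.13 on day 7, with 0.42 in iPSCs. These values share the day 0 libraries, and the steps between days were not tested here.

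**Figure D5:**
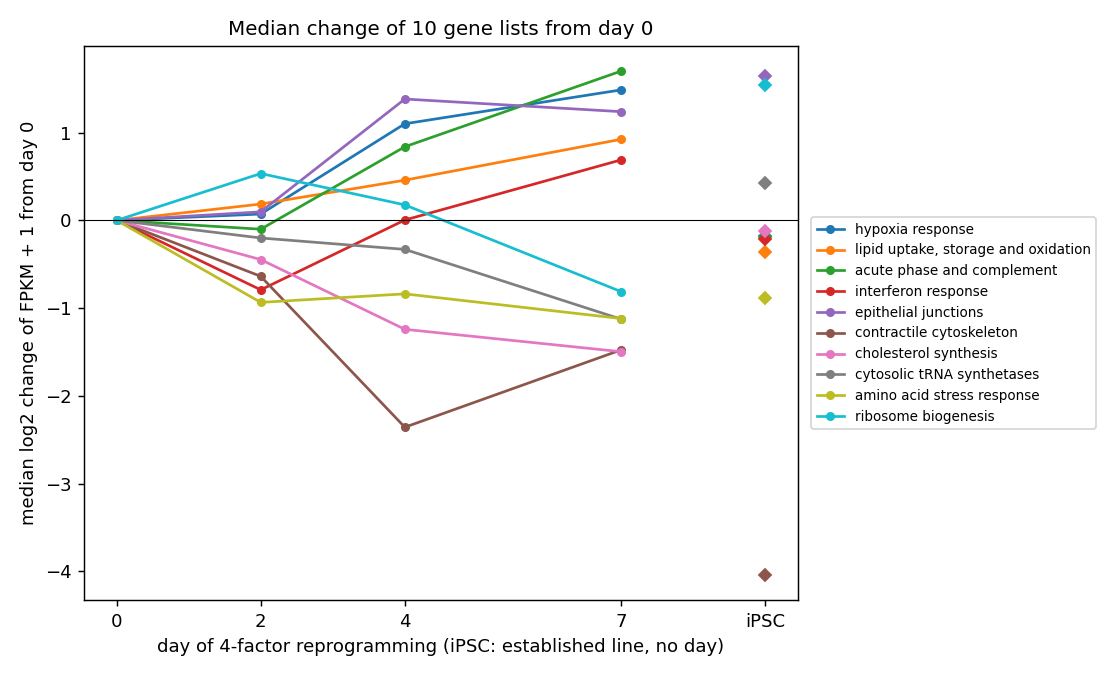
Median log2 change of FPKM + 1 from day 0 of 10 gene lists on days 2, 4 and 7 (lines) and in iPSCs (diamonds, no day). On day 7 the hypoxia, acute-phase and lipid uptake lists stand at their highest of the series, the sterol and tRNA synthetase lists at their lowest, and the contractile list above its day 4 value.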

How the data were processed

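Values are the FPKM per gene that the authors deposited, 1 table for each reprogramming route, of which only the 4-factor table was used. The tools HISAT2 2.2.1, StringTie 2.0 and fastp 0.20.1 and the build mm10 are named per the submitters' processing notes. The annotation, the strand setting and the counting options are not given in the sources used here. Of 55401 gene identifiers, 99.53% had a symbol in GENCODE M21. Multi-mapping between paralogs, pseudogenes and overlapping genes is not resolved in the deposited FPKM, so values of ribosomal proteins, keratins of tandem clusters, class I genes, metallothioneins and mitochondrial genes with nuclear copies are uncertain to that extent. Relative depth came from the smallest FPKM steps of 11699 genes with a single exon of at least 400 bp, so absolute read counts are unknown.

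Genes that reached 1 FPKM in 2 or more of the 10 libraries were tested on log2(FPKM + 1), a scale that understates changes of low genes, with limma 3.58.1 (R 4.3.3, moderated test with an intensity trend, 1 mean per group). Calls needed a 2-fold change and a Benjamini-Hochberg adjusted p under 0.05, and adjusted p-values run over all 14761 genes. The procedure was tested on simulated data. Each group has 2 libraries, and the labels do not say whether these are separate cultures. P-values then measure only the spread between replicates, shared over all groups of the table, which may be technical. Lists were described by counts and medians only: 62 lists of 1176 genes, of which 1059 were tested, 110 lay below the filter and 7 symbols were not in the table. The members, lists and tests were chosen with earlier results of these data known. The text names members of the lists, the delivered factors, and, among called genes with at least 5 FPKM on average in the higher group and with groups that do not overlap, the 15 largest rises and the 15 largest falls (without Gm and Rik symbols); 3 listed symbols with several identifiers were represented by the highest one. Of the listed genes, 15 passed the filter only through the day 7 libraries (12 called) and 8 only through the day 0 libraries (5 called). Promoters are RefSeq windows of GRCm38.p6, 250 bases before the start, and up to 30 bases each side of a match are shown. Alternatives were TPM, rescaling without mitochondrial genes, quantile normalization, a pseudocount of 0.1, other filters, fewer libraries in the fit, a replicate block and leaving out each library; rescaling to equal FPKM sums was added after the data were seen. Python 3.11.15 with pandas 2.3.3, numpy 2.4.6 and matplotlib 3.10.9 did the rest. A few genes of the lists are not reported by name here, though list counts, medians and sums include them.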

Additional observations from a re-analysis of the deposited data

How the results depend on the processing

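With 2 libraries per group and no reads, each group mean rests on 2 values per gene, and low genes carry most of the uncertainty. The spread was shared over all 10 libraries, so each SE also reflects the other groups. Replicates lay more than 2-fold apart in 556 genes on day 4 and 254 in iPSCs, against 60 on day 7 and 34 on day 0. The number called moved from 1493 to 2291 on TPM and to 2578 with a pseudocount of 0.1, which also gave 1696 higher. Genes called lower numbered 577 as reported. They numbered 1189 on TPM, 927 after rescaling without mitochondrial genes, 882 with a pseudocount of 0.1 and 903 with equal FPKM sums. The rescalings shift every gene of a library by 1 factor. TPM and the rescaling without mitochondrial genes also bring each library to a larger total, so the pseudocount of 1 weighs less there. Equal FPKM sums keep the mean total and gave 1634 called genes. Beyond that the cause was not tested. Leaving out 1 library gave 1379 to 1504 called genes, 874 to 907 higher and 498 to 612 lower. Filters and fewer libraries in the fit kept all 3 counts within 1.5 times. The labels do not say what equal replicate numbers share; the correlation of same-numbered deviations was 0.051 between day 0 and day 7, 0.246 between day 7 and iPSCs, and -0.21 to 0.246 over all pairs of 4-factor groups, so the numbers were not taken as pairs. A fit with the replicate number as a block called 1493 genes, 920 higher and 573 lower. Of 253 called genes named in the text, 212 were called under all 14 alternatives, 41 lost the call under at least 1, and none changed sign. Among the rescalings, 17 were not called under quantile normalization, 14 with equal FPKM sums, 7 on TPM and 3 without mitochondrial genes. Not every such loss is given beside its gene. Of 80 list counts above 0, 46 stayed within 1.5 times under every alternative.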

Other observations

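Some called genes outside the lists, chosen after their values were seen, add further functions to the day 7 state. Penk, the precursor of enkephalin peptides, had 389 and 524 FPKM on day 7, against 68.7 and 50.7 on day 0 (log2 change 2.91 ± 0.20 (SE), adjusted p = 1.76e-05). Pygl, a glycogen phosphorylase, had 23.1 and 25.7 FPKM on day 7, against 0.960 and 1.33 on day 0 (log2 change 3.57 ± 0.14 (SE), adjusted p = 1.46e-06). Selenop, the secreted selenium carrier, had 53.2 and 49.2 FPKM on day 7, against 4.18 and 4.06 on day 0 (log2 change 3.35 ± 0.15 (SE), adjusted p = 2.06e-06), and the pyrimidine salvage enzyme Cda had 20.8 and 23.6 FPKM on day 7, against 0.842 and 0.459 on day 0 (log2 change 3.82 ± 0.16 (SE), adjusted p = 1.46e-06). Kitl, the ligand of the Kit receptor, had 29.7 and 25.3 FPKM on day 7, against 5.43 and 4.64 on day 0 (log2 change 2.24 ± 0.17 (SE), adjusted p = 3.11e-05). Day 7 libraries lay above day 0 libraries in all 5, which adds no support, since the genes were chosen by their values.

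Among the falls chosen in the same way, Tfrc, the transferrin receptor for iron uptake, had 6.46 and 6.33 FPKM on day 7, against 22.1 and 21.1 on day 0 (log2 change -1.61 ± 0.16 (SE), adjusted p = 0.000136). Slc38a1, a glutamine transporter, had 5.11 and 4.83 FPKM on day 7, against 24.9 and 21.7 on day 0 (log2 change -2.02 ± 0.15 (SE), adjusted p = 2.29e-05). Hes1, a Notch target, had 11.5 and 15.6 FPKM on day 7, against 46.5 and 40.4 on day 0 (log2 change -1.63 ± 0.18 (SE), adjusted p = 0.000246), and Piezo1, a stretch-activated channel, had 16.4 and 18.6 FPKM on day 7, against 58.8 and 47.6 on day 0 (log2 change -1.54 ± 0.20 (SE), adjusted p = 0.000572). Day 7 libraries lay below day 0 libraries in all 4, which again adds no support to a choice made by values.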
